A study of Homo sapiens with 6 samples.

Results

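*ABLIM1*, *GPRIN3* and *OLFML2A* were chosen from the 30017 genes of the count table as genes most clearly raised in 96 h CTCF-depleted cells against 96 h control cells, so that their difference between these conditions is given here as a description and was not tested. The cells, BLaER1-CTCF-mAID, derive from 1 clone of a B cell leukemia line that exogenous CEBPA converts into induced macrophages (iMacs). An auxin-inducible degron on CTCF lets the auxin IAA trigger loss of the protein. RNA sequencing (RNA-seq) gave 6 libraries, which comprised 2 biological replicates each of cells before differentiation (0 h), cells given the transdifferentiation factors 17β-estradiol, IL-3 and CSF-1 for 96 h but no IAA (96 h control), and cells given IAA along with these factors for the same time (96 h CTCF-depleted). All cells carried the CEBPA transgene and the degron, including those at 0 h. A line without the degron treated with IAA was not analysed here, so that effects of IAA and of CTCF loss cannot be told apart. The comparisons ask how each gene behaves during conversion with CTCF and without it.

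CTCF is a DNA-binding protein that stops loop extrusion by cohesin, and in this way shapes which enhancers and promoters contact each other. *ABLIM1* encodes actin-binding LIM protein 1, which has LIM domains and a villin headpiece and binds actin filaments. *GPRIN3* encodes a member of the GPRIN family, proteins that bind G protein α-subunits of the Gi/o class. *OLFML2A* encodes a secreted glycoprotein with an olfactomedin domain, found in the extracellular matrix.

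In GENCODE release 44 (hg38), *ABLIM1* lies on the minus strand at chr10:114431112-114768061 and has 15 annotated start sites, *GPRIN3* on the minus strand at chr4:89236383-89307800 with 2, and *OLFML2A* on the plus strand at chr9:124777133-124814885 with 3. The span of *ABLIM1* overlaps that of 1 long noncoding RNA on the opposite strand and 2 processed pseudogenes on its own strand. These had no row in the count table. Overlap was taken on whole spans, and whether they overlap exons of *ABLIM1* was not checked. The strand setting of the counting is not given in the sources used here. Whether any of their reads were counted for *ABLIM1* is therefore not known. The other two genes overlap no annotated gene. The counts do not say which start site was used.

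RefSeq (GRCh38.p14) gave promoter windows for 2 of the 3 genes, 6 for *ABLIM1* and 2 for *OLFML2A*. The 250 bases before a start site are shown for 2 windows of each gene, because they include the windows with a match to a motif of CEBPA, the factor that drives the conversion, and the most GC-rich window of each gene. Capitals mark that match. The first *ABLIM1* window is chr10:114768305-114768554 and the second chr10:114684444-114684693, both on the minus strand. The *OLFML2A* windows are chr9:124776883-124777132 and chr9:124800624-124800873, both on the plus strand.
ABLIM1, start site 114768304: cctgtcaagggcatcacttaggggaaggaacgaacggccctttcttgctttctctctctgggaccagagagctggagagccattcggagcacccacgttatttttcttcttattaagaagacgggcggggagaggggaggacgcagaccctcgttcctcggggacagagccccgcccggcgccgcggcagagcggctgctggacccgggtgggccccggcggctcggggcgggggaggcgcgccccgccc
ABLIM1, start site 114684443: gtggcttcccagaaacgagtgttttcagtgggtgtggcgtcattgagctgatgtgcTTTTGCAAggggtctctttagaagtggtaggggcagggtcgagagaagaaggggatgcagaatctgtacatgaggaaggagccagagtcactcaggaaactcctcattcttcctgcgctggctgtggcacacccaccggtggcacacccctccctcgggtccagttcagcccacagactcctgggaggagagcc
OLFML2A, start site 124777133: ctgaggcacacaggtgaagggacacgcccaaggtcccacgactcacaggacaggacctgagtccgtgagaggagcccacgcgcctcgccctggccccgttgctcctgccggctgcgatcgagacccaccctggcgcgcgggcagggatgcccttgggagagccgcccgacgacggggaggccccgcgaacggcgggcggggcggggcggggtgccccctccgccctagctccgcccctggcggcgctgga
OLFML2A, start site 124800874: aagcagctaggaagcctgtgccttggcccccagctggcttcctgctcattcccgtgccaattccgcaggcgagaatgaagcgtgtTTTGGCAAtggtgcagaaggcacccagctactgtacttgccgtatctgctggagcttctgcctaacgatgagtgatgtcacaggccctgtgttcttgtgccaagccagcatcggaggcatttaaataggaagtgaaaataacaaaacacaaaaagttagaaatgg

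The first window of each gene was rich in G and C, at 67.2% with 23 CpG for *ABLIM1* and 75.2% with 28 CpG for *OLFML2A*, against a median of 58% over all windows. The second windows held 57.2% and 50.8% G and C, with 6 and 7 CpG. The C/EBP motif, searched as TTGCNNAA on both strands, was found in these second windows only, 194 bases before the start site for *ABLIM1* and 165 bases before it for *OLFML2A*. It was present in 2 of 8 windows of the 2 genes and in 9.05% of all 35116 windows of this length. The core consensus of the CTCF motif, searched on both strands, was in 0 of 8 windows and in 0.427% of all windows. Such a match is a description of the letters and shows no binding.

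*ABLIM1* took opposite courses in the 2 arms of the experiment. At 0 h its libraries held 262 and 365 counts, or 27.0 and 27.4 CPM (counts scaled to library size with TMM factors). In 96 h control cells 64 and 68 counts were left, or 5.65 and 6.30 CPM. In 96 h CTCF-depleted cells there were 647 and 684 counts, or 59.9 and 63.0 CPM. The libraries of the 3 conditions did not overlap, with control lowest, 0 h between and CTCF-depleted highest. Libraries that did not overlap were frequent among all genes: 42.8% were lower and 43.9% higher in both control libraries than at 0 h, 43.1% and 44.6% in both CTCF-depleted libraries than at 0 h, and 37.8% and 30.1% in both CTCF-depleted than in both control libraries.

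During conversion with CTCF, *ABLIM1* fell to 22.0% of its 0 h level, by 2.19 on the log2 scale (SE 0.13, edgeR quasi-likelihood test, adjusted p = 5.54e-23). Without CTCF it rose to 2.26 times the 0 h level (log2 fold change 1.17, SE 0.08, adjusted p = 7.22e-19). Genes were called where adjusted p was below 0.01 and the log2 fold change exceeded 0.6 in either direction, the thresholds of the study. By this rule, 22.9% of the 14758 genes tested were lower in 96 h control cells than at 0 h and 27.2% were higher in CTCF-depleted cells than at 0 h. Each of these contrasts shares 2 libraries with the comparison that chose the gene. The mean of both 96 h conditions on the log2 scale is not fully independent of that choice either, because control rests on 132 counts and CTCF-depleted on 1331. It was 0.51 below 0 h (log2 fold change -0.51, SE 0.09, adjusted p = 2.27e-06), short of the fold change threshold. The mean of the CPM values was instead 1.24 times that at 0 h, because the 96 h conditions lie on either side of it.

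*GPRIN3* was already expressed at 0 h, and its change with CTCF stayed below the fold change threshold. Its 0 h libraries held 582 and 798 counts (60.0 and 59.9 CPM), the 96 h control libraries 954 and 897 counts (84.2 and 83.1 CPM) and the CTCF-depleted libraries 2963 and 2984 counts (274.4 and 274.9 CPM). Both control libraries lay above both 0 h libraries, and both CTCF-depleted libraries lay above all others. Conversion with CTCF gave 1.40 times the 0 h level, with a log2 fold change of 0.48 (SE 0.06, adjusted p = 1.42e-09), below the fold change threshold. Without CTCF the level rose 4.58-fold over 0 h (log2 fold change 2.20, SE 0.06, adjusted p = 3.74e-39). As for *ABLIM1*, both contrasts share 2 libraries with the comparison that chose the gene. The log2 mean of both 96 h conditions was 1.34 above 0 h (SE 0.05, adjusted p = 4.21e-30), and 26.6% of genes tested were higher in that comparison. This mean is not fully independent of the choice either, because control rests on 1851 counts and CTCF-depleted on 5947.

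*OLFML2A* was barely detected at 0 h and rose in both arms. Each 0 h library held 2 counts (0.206 and 0.150 CPM). The 96 h control libraries held 83 and 82 counts (7.33 and 7.59 CPM), and the CTCF-depleted libraries 635 and 618 counts (58.8 and 56.9 CPM). As at *GPRIN3*, the order was 0 h, control and CTCF-depleted, with no overlap.

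The summed *OLFML2A* counts gave a ratio of 42.9 between 96 h control and 0 h (95% exact interval 16.5 to 159) and of 333 between CTCF-depleted and 0 h (130 to 1224). These intervals cover counting error only and are wide because 4 counts stand behind the 0 h level. Both rises passed the thresholds (adjusted p = 8.37e-20 and 1.86e-38), as did 25.4% and 27.2% of genes tested. Here too, both contrasts share 2 libraries with the comparison that chose the gene. The log2 mean of both 96 h conditions was also above 0 h (adjusted p = 1.83e-30). It is not fully independent of the choice either, because control rests on 165 counts and CTCF-depleted on 1253.

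**Figure D1:**
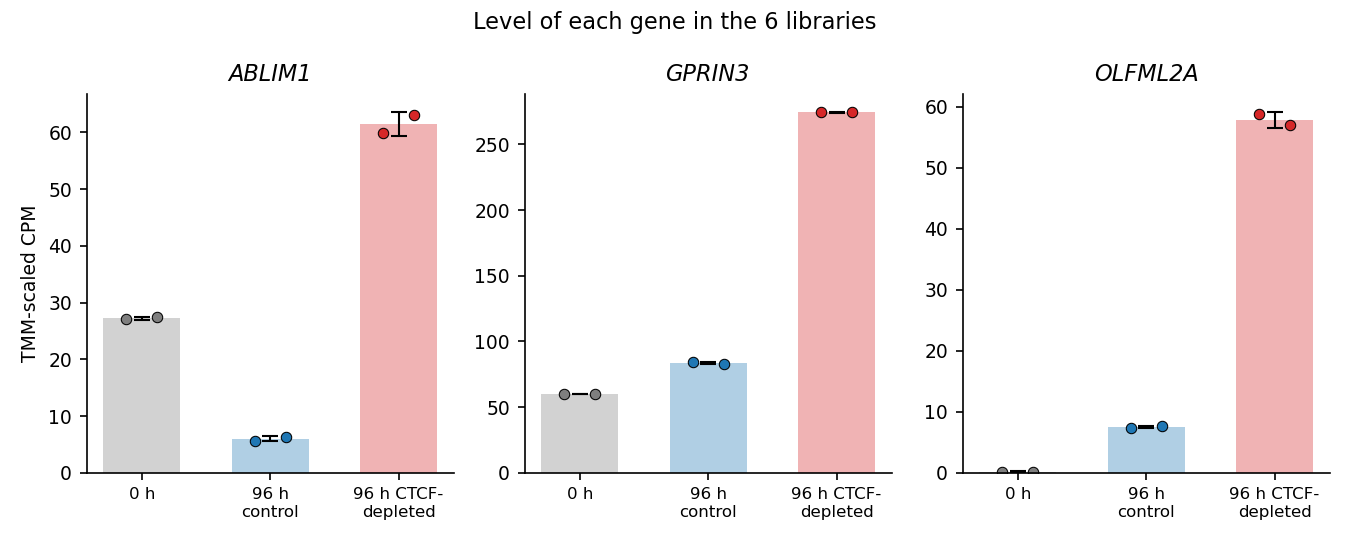
TMM-scaled CPM (vertical axes, linear, a separate scale per gene) of *ABLIM1*, *GPRIN3* and *OLFML2A* in the 6 libraries. Points are libraries, bars are means and error bars are SD (n = 2). The CTCF-depleted libraries are highest in each panel, but only *ABLIM1* is lower in 96 h control (5.97 CPM) than at 0 h (27.2 CPM).

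The 3 genes started from different levels. Per kb of annotated exon, the scale on which genes can be compared, the 0 h level was 3.997 ± 0.0086 CPM per kb (SD, n = 2) for *GPRIN3*, 2.66 ± 0.024 for *ABLIM1* and 0.0263 ± 0.0059 for *OLFML2A*. These levels exceeded those of 42.6%, 34.0% and 3.08% of the 13445 genes tested that have an annotated length. In 96 h control cells the order was *GPRIN3* at 5.58 ± 0.053 CPM per kb, *OLFML2A* at 1.10 ± 0.028 and *ABLIM1* at 0.585 ± 0.045, so that *ABLIM1* and *OLFML2A* changed places. In CTCF-depleted cells the levels were 18.3 ± 0.025, 8.55 ± 0.19 and 6.02 ± 0.21 CPM per kb in the same order. Within each condition, the libraries of neighbouring genes in these orders did not overlap. The length is that of all annotated exons together and is too long for a cell that uses 1 short isoform. It was 14998 bases for *GPRIN3*, 10209 for *ABLIM1* and 6771 for *OLFML2A*, and isoforms were not measured.

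The values that chose the genes were as follows. *ABLIM1* had 61.5 ± 2.19 CPM (SD, n = 2) in CTCF-depleted and 5.97 ± 0.459 in control cells, a ratio of 10.3, with ratios between single libraries from 9.51 to 11.2. *OLFML2A* had 57.9 ± 1.32 against 7.46 ± 0.190 CPM, a ratio of 7.76 (7.50 to 8.03). *GPRIN3* had 274.6 ± 0.379 against 83.6 ± 0.798 CPM, a ratio of 3.28 (3.26 to 3.31). The fitted log2 fold changes were 3.36 (SE 0.11), 2.95 (SE 0.12) and 1.72 (SE 0.06).

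All 3 genes passed the filter on low counts and are among the 798 genes (5.41% of those tested) called higher without CTCF, which follows from how they were chosen. Ordered by p among raised genes, *GPRIN3* was at place 2, *ABLIM1* at 3 and *OLFML2A* at 5. Genes around them that were not taken were *EGR1* at place 1 (log2 fold change 2.96), *SPTLC2* at 4 (1.36), *AHI1* at 6 (1.95), *PLK2* at 7 (1.94) and *ZNF185* at 8 (5.08). Ordered by fold change among the 798 called genes, *ABLIM1* was at place 28, *OLFML2A* at 39 and *GPRIN3* at 173. The low place of *GPRIN3* by fold change and its high place by p go with a high count and a small spread.

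**Figure D2:**
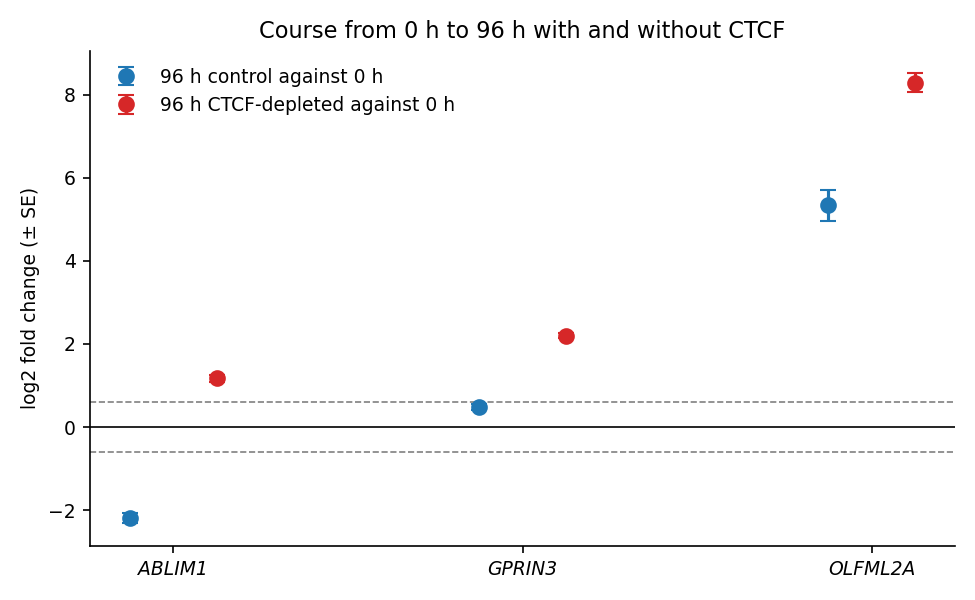
Log2 fold change against 0 h (vertical axis, points, with SE as bars) of the 3 genes in 96 h control (blue) and 96 h CTCF-depleted cells (red), from the edgeR fit of all 6 libraries. Dashed lines mark 0.6 in both directions. *ABLIM1* lies at -2.19 and 1.17, on opposite sides of 0, *GPRIN3* at 0.48 and 2.20, and *OLFML2A* at 5.34 and 8.29, where the 0 h level rests on 4 counts.

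Close relatives of the 3 genes, taken by gene family, were then examined. The families were listed with earlier results of these data known. Of the ABLIM family, which shares LIM domains and a headpiece, *ABLIM3* moved against *ABLIM1*. It had 0 counts in both 0 h libraries, 16 and 23 in 96 h control and 1 and 5 in CTCF-depleted cells. Only the control libraries carried *ABLIM3* past the filter on low counts, so that it was tested because it was high there. In control cells it was at least 6.80-fold higher than at 0 h, taking 3 counts per library as the floor, whereas the CTCF-depleted level was about that of the floor. *ABLIM3* fell by 2.62 on the log2 scale without CTCF against control (log2 fold change -2.62, SE 0.61, adjusted p = 3.93e-04), as did 7.03% of genes tested by the same rule. This call was lost without 96 h CTCF-depleted replicate 1 (-1.91, adjusted p = 0.0265) or without 96 h control replicate 2 (-2.30, adjusted p = 0.0189), and adjusted p ranged from 1.23e-04 to 0.0265 over the alternatives.

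*GPRIN1*, the other tested GPRIN family member, also took the opposite direction to its relative. Its counts were 717 and 910 at 0 h (74.0 and 68.3 CPM), 275 and 252 in 96 h control (24.3 and 23.3 CPM) and 156 and 142 in CTCF-depleted cells (14.4 and 13.1 CPM), with no overlap between conditions. It fell by 1.57 on the log2 scale with CTCF (adjusted p = 1.29e-24) and by 2.36 without it (adjusted p = 6.22e-31), where 25.2% of genes tested were lower. Between the 96 h conditions it fell by 0.79 without CTCF (SE 0.11, adjusted p = 1.93e-08). Per kb, *GPRIN1* was above *GPRIN3* at 0 h, with 17.5 and 16.1 CPM per kb against 4.003 and 3.991, and below it in CTCF-depleted cells, with 3.41 and 3.09 against 18.3 in both. *GPRIN2* had at most 1 count in any library.

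Olfactomedin domain genes were mostly not detected at this depth. *OLFM1*, *OLFM3*, *OLFM4*, *MYOC* and *GLDN* had 0 counts in all 6 libraries, which allows up to 3 counts per library, and *OLFM2* and *OLFML1* had at most 2. *OLFML3*, a secreted relative, had 4 and 0 counts at 0 h, 81 and 73 in control and 96 and 86 in CTCF-depleted cells. It rose during conversion as *OLFML2A* did (adjusted p = 6.78e-16 with CTCF and 1.74e-17 without), but its difference between the 96 h conditions did not pass the test (log2 fold change 0.27, SE 0.21, adjusted p = 0.315). *OLFML2B*, the nearest relative by name, had 4 and 3, 18 and 14, and 5 and 13 counts in the same order. Its log2 fold change without CTCF against control was -0.79 (SE 0.49, adjusted p = 0.213). Its rise in control cells over 0 h passed the test (log2 fold change 2.20, SE 0.60, adjusted p = 9.79e-04) but not with DESeq2 (adjusted p = 0.0204), without 0 h replicate 2 (0.0386) or without 96 h control replicate 1 (0.0143).

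**Figure D3:**
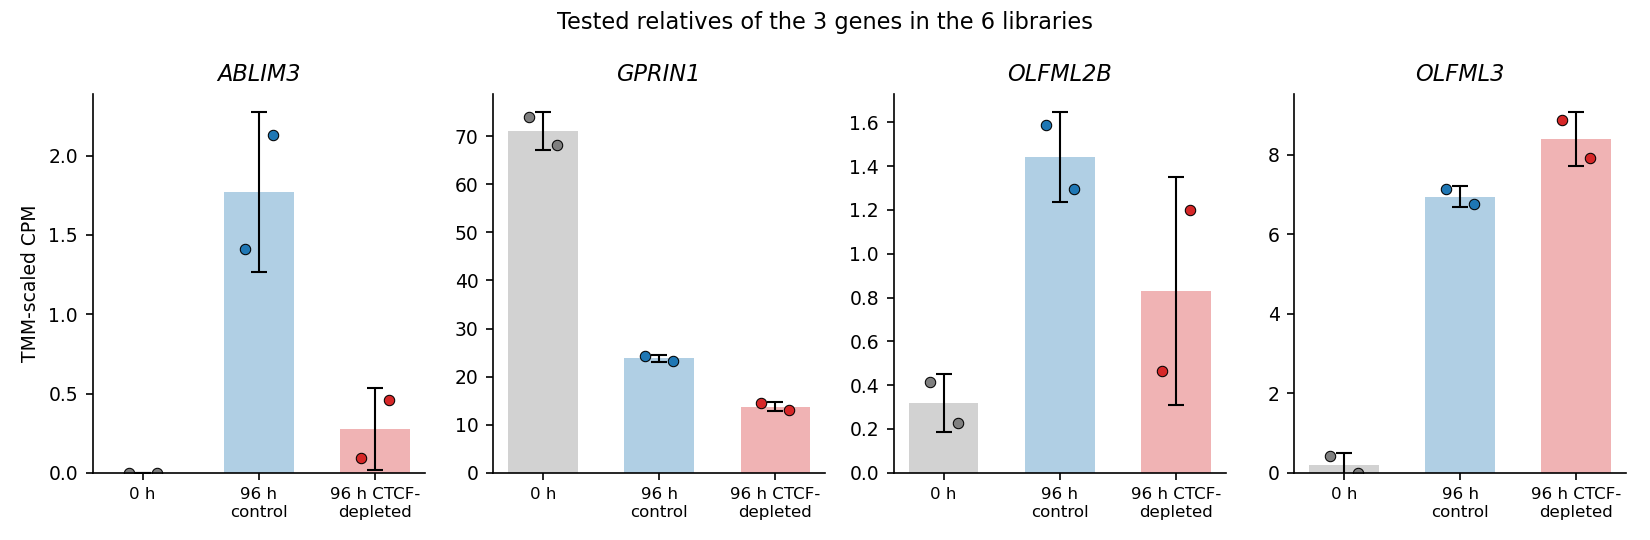
TMM-scaled CPM (vertical axes, linear, a separate scale per gene) of the 4 tested relatives in the 6 libraries. Points are libraries, bars are means and error bars are SD (n = 2), cut at 0. *ABLIM3* and *GPRIN1* were lower in CTCF-depleted than in control libraries, and the *OLFML2B* and *OLFML3* differences did not pass the test.

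Genes near the 3 loci were examined because CTCF acts on local contacts. Within 500 kb of a span, 29 genes were listed and 21 tested, of which 4 were higher and 1 lower without CTCF against control (5.41% and 7.03% of all genes tested, respectively). Their median log2 fold change was 0.06, against -0.03 for all genes. Within 1 Mb, 33 genes were tested, with 5 higher and 1 lower.

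*NR6A1*, an orphan nuclear receptor gene, starts 5.8 kb from *OLFML2A* in the opposite direction. It had 17 and 27 counts at 0 h, 62 and 50 in control and 116 and 130 in CTCF-depleted cells, the same order of conditions as *OLFML2A*. Without CTCF it was 2.25-fold higher than in control (log2 fold change 1.17, SE 0.19, adjusted p = 1.39e-06). The other 11 tested genes around *OLFML2A* had log2 fold changes between -0.26 and 0.16, and none passed both thresholds. Among these, *HSPA5*, an endoplasmic reticulum chaperone, was at 0.06 and *RPL35*, a ribosomal protein, at -0.07.

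Near *GPRIN3*, *TIGD2*, a gene derived from a transposase, had 100 and 167 counts at 0 h, 105 and 99 in control and 169 and 208 in CTCF-depleted cells. It was 1.89-fold higher without CTCF (log2 fold change 0.92, SE 0.15, adjusted p = 1.39e-06). *FAM13A*, which starts next to *TIGD2* in the opposite direction, was at -0.19 (SE 0.08, adjusted p = 0.0362). *FAM13A* had risen during conversion, to 32.9 times the 0 h level in control cells (adjusted p = 4.11e-39).

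Around *ABLIM1*, both directions were seen. *C10orf118* (*CCDC186* in GENCODE), 256.9 kb past its 3′ end, was 1.99-fold higher without CTCF (log2 fold change 0.99, SE 0.07, adjusted p = 5.08e-17). *ADRB1*, the β1-adrenergic receptor gene, had 4 and 7 counts at 0 h, 264 and 212 in control and 386 and 402 in CTCF-depleted cells, and was 1.70-fold higher (log2 fold change 0.76, SE 0.11, adjusted p = 5.70e-08). *ATRNL1*, 325.3 kb upstream, fell by 1.06 on the log2 scale (SE 0.19, adjusted p = 4.01e-06), from 99 and 87 counts in control to 42 and 45. The nearest tested genes, *AFAP1L2* and *FAM160B1*, had log2 fold changes of 0.79 (adjusted p = 0.157) and 0.28 (adjusted p = 6.71e-04), neither past both thresholds. *C10orf118* and *ADRB1* rose in both arms over 0 h, unlike *ABLIM1*, which fell with CTCF.

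Genes that share protein domains or pathways with the 3 genes were described as lists. Of 32 tested LIM domain genes of the actin cytoskeleton and adhesions, 2 were higher and 1 lower without CTCF, against 5.41% and 7.03% of all genes tested, with a median of 0.01. These counts are near the background. *MICAL2*, an actin-oxidizing enzyme, rose from 14.7 and 18.7 CPM to 31.8 and 34.7 CPM (log2 fold change 0.99, SE 0.12, adjusted p = 5.00e-10). *AJUBA* was higher by 1.46 (SE 0.33, adjusted p = 2.64e-04), a call lost without CTCF-depleted replicate 2 or control replicate 1, and *LIMA1* was lower by 0.64 (log2 fold change -0.64, adjusted p = 4.68e-04), a call lost with DESeq2 or without control replicate 1. None of 3 tested villin headpiece genes and none of 5 tested *ABLIM1* partners and SRF cofactors passed the thresholds, with log2 fold changes from -0.20 to 0.30 and from -0.43 to 0.34.

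For *GPRIN3*, none of 5 tested Gi/o α-subunit genes passed the thresholds between the 96 h conditions, with log2 fold changes from -0.54 to 0.61. Of 11 tested β- and γ-subunit genes, *GNGT2* alone was called, at -1.76 (SE 0.44, adjusted p = 8.75e-04), near the 7.03% of all genes called lower, and this call was lost with DESeq2 and without CTCF-depleted replicate 2 or control replicate 1. Of 14 tested regulators of G protein signaling, 1 was higher and 1 lower, near the 5.41% and 7.03% of all genes tested, with a median of -0.04. *RGS2* rose from 27.6 and 28.7 CPM to 79.0 and 74.2 CPM (log2 fold change 1.44, SE 0.08, adjusted p = 2.47e-22). *RGS1* fell from 24 and 26 counts to 3 and 5 (log2 fold change -2.58, SE 0.52, adjusted p = 5.75e-05). Like *ABLIM3*, it passed the filter on low counts only through the control libraries, where it was high. *RGS1* and *RGS2* speed up GTP hydrolysis by G protein α-subunits.

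For *OLFML2A*, 3 of 21 tested extracellular matrix genes were higher and 3 lower without CTCF, against 5.41% and 7.03% of all genes tested. *FN1*, which encodes fibronectin, rose by 0.69 (SE 0.06, adjusted p = 7.22e-16). *NID2*, a basement membrane gene, rose by 1.04 (SE 0.13, adjusted p = 8.09e-10), although it remained at 4.57% of its 0 h level. *COL6A2*, a collagen VI chain, rose by 1.08. *FBLN1* fell by 1.13, *AGRN* by 0.73 and *LAMA5* by 0.75 on the log2 scale. The median of the list was -0.05, near that of all genes.

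The cell state was compared through marker genes. The summed level of 10 B cell markers was 3146 to 3155 CPM at 0 h, 430 to 438 in control and 443 to 456 in CTCF-depleted libraries, and that of 10 macrophage markers was 39.4 to 41.6, 5119 to 5366 and 4979 to 5014 CPM. Single genes weigh heavily in these sums: from control to CTCF-depleted cells, *CD22* went from 34.8 to 96.6 CPM and *LYZ* from 4527 to 4158 CPM. The median log2 fold change between these conditions went the other way, at -0.17 for the B cell and 0.13 for the macrophage markers. Between the 96 h conditions, 2 B cell markers were higher (log2 fold change of *CD22* 1.47, of *VPREB3* 1.34) and 2 lower (*RAG1* -1.94, *VPREB1* -0.89). Of the macrophage markers, 1 was higher (*ITGAM* 1.15) and 1 lower (*MPO* -0.70). Among all genes tested, 5.41% were higher and 7.03% lower. The *VPREB3* and *MPO* calls were lost under several alternatives. Of 4 T cell markers, *CD3D* and *CD3G* were at 0 in all libraries, and only *CD2* was tested (log2 fold change 0.51, not past the thresholds). *CD2* had 0 counts in both 0 h libraries, 40 and 38 in control and 54 and 55 in CTCF-depleted cells. Over 0 h it was called higher in both arms (log2 fold change 8.30 and 8.81), as were 25.4% and 27.2% of all genes tested. In bulk RNA, fewer cells of a type and less RNA per cell cannot be told apart, and the part of cell state in the *ABLIM1*, *GPRIN3* and *OLFML2A* differences was not tested. The *CTCF* transcript differed by 0.10 between the 96 h conditions (SE 0.05, adjusted p = 0.119), which does not check depletion of the protein. Of 6 aryl hydrocarbon receptor targets, a pathway that indole compounds can activate, 2 were tested. Their log2 fold changes were 0.29 and 0.55, with a median of 0.42 against -0.03 for all genes. Neither passed the thresholds, which need a change above 0.6, and a response to IAA was not tested.

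The genes most like each of the 3 over the 6 libraries were named by the root mean square difference of log2 CPM after centring, as a description that shares all libraries with the choice. The names depend on this measure: with the Pearson correlation in its place, 0 of 3 genes were shared for *ABLIM1*, 1 of 3 (*FOSL1*) for *GPRIN3* and 0 of 3 for *OLFML2A*. For *GPRIN3* these were *FOSL1* (0.044), *ZFAND4* (0.074) and *ERMP1* (0.080). *FOSL1*, which encodes an AP-1 subunit, had 42 and 53 counts at 0 h, 66 and 60 in control and 216 and 209 in CTCF-depleted cells. For *ABLIM1* they were *PKHD1* (0.33), *LOC101928764* (0.34) and *PXN-AS1* (0.38). *PXN-AS1* had 32 and 51, 15 and 12, and 84 and 86 counts in the same order, so that it was also lowest in control cells, whereas *PKHD1* and *LOC101928764* had at most 18 counts in any library. For *OLFML2A* they included *LOC101927952* (0.43) and *IL31RA* (0.47). *IL31RA*, a cytokine receptor gene, had 0 counts at 0 h, 39 and 40 in control and 152 and 160 in CTCF-depleted cells.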

How the data were processed

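RNA-seq was measured in 6 libraries, 2 per condition, with 9273470 to 12718780 counts each. The authors made total RNA libraries after ribosomal RNA depletion, aligned reads to hg38 with STAR 2.6.1d and deposited raw counts per gene from featureCounts 2.0.6; the annotation release is not given in the sources used here. No per-sample column was left out. Counts were fitted in R 4.3.3 with edgeR 4.0.16 (filterByExpr, TMM, quasi-likelihood test, condition as the only term), with Benjamini-Hochberg adjustment over the 14758 genes tested. SE were derived from F and the log2 fold change. The fit was tested on simulated data.

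Symbols were joined to GENCODE release 44 (23479 of 30017). CPM were scaled with TMM, and log2 CPM used a prior count of 2. Python 3.11.15, pandas 2.3.3, numpy 2.4.6, scipy 1.17.1 and matplotlib 3.10.9 were used. The alternatives were DESeq2 1.42.0, RLE normalization, 2 other filters, other thresholds, a replicate block, the 4 libraries at 96 h alone and leaving out each library in turn. The smallest permutation p of 2 against 2 libraries is 0.333, so single values were not permuted. Named genes were relatives, tested genes within 500 kb, the 3 genes most like each member, genes ranked next to the members by p, up to 4 called genes per list and direction, and markers. The 3 genes and all lists were chosen with earlier results of these data known. Some genes that the naming rule covers are not reported here.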

Additional observations from a re-analysis of the deposited data

Results flagged for a closer look

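*ABLIM1* moved in opposite directions from 0 h with and without CTCF, with log2 fold changes of -2.19 in 96 h control and 1.17 in 96 h CTCF-depleted cells. This difference between the arms was not tested, because the gene was chosen on it. *TIGD2*, near *GPRIN3*, also moved in opposite directions, at -0.32 (adjusted p = 0.0637) and 0.59 (adjusted p = 2.42e-04), neither past both thresholds (the second passed them under 5 alternatives that kept the thresholds, with values from 0.60 to 0.75), and the difference between them was 0.92 (edgeR, adjusted p = 1.39e-06). *PPP6C*, a phosphatase gene within 500 kb of *OLFML2A*, was at 0.14 (adjusted p = 0.0598) and -0.12 (adjusted p = 0.110), with a difference of -0.26 (adjusted p = 0.00183), below the fold change threshold.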

How the results depend on the processing

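The 3 genes, and the calls made for other genes, kept their direction under the alternatives run. Values near 0 that passed no threshold changed sign for 4 genes near *OLFML2A*. Between the 96 h conditions, leaving out each library in turn gave -0.275 to 0.026 for *PSMB7*, -0.068 to 0.084 for *GAPVD1* and -0.275 to 0.190 for *MIR181A2HG*, which was also at 0.0076 with no filter and 0.0085 with the 4 libraries at 96 h alone. For the mean of both 96 h conditions against 0 h, *PPP6C* was at -0.0051 to 0.025 without 1 library and at -0.012 with no filter. Leaving out each library in turn kept the *ABLIM1* log2 fold change between -2.27 and -2.11 for control against 0 h and between 1.14 and 1.21 for CTCF-depleted against 0 h. The corresponding ranges were 0.47 to 0.49 and 2.19 to 2.20 for *GPRIN3*, and 5.10 to 5.53 and 8.05 to 8.49 for *OLFML2A*. With no minimum fold change and adjusted p below 0.05, the *GPRIN3* change in control cells (0.48) and the *ABLIM1* change of the mean of both 96 h conditions (-0.51) were also called. The *GPRIN3* difference between the 96 h conditions moved to 1.75 with no filter and to 1.75 with the 4 libraries at 96 h alone. With the looser threshold, 5500 genes were lower in control, 5658 in CTCF-depleted and 5792 in the mean of both against 0 h, 2375 were higher and 3330 lower without CTCF against control, and 3 genes near the loci were lower. With an absolute log2 fold change above 1, 2075 genes were lower in control and 2332 in the mean of both against 0 h, 409 were higher and 436 lower without CTCF, and 1 gene near the loci was higher. *OLFML2A* could not be fitted with at least 10 counts in every library, because its 0 h counts fall below that.

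The replicate numbers did not pair the libraries (correlations of deviations -0.0194, 0.0109 and -0.0294). With the replicate number as a block, 785 genes were higher and 1033 lower without CTCF against control, against 798 and 1038, and the *ABLIM1* change in control cells was -2.18. *TIGD2* passed both thresholds in CTCF-depleted cells against 0 h with the block (0.60), and also with DESeq2 (0.61), at least 10 counts in every library (0.61), without 0 h replicate 2 (0.75) and without CTCF-depleted replicate 1 (0.73).

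Depth limits *OLFML2A* at 0 h and *ABLIM3*, and 2 libraries per condition limit every estimate of spread.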
